A study of Rattus norvegicus with 21 samples.

Results

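Complement and blood coagulation are cascades of plasma proteases, most of them made by hepatocytes and secreted as inactive precursors. Complement opens through C1q, mannose-binding lectin or spontaneous C3 turnover, and it ends in the C5 to C9 membrane attack complex. Coagulation opens when tissue factor, a cell-surface protein, meets plasma factor VII, and it ends in thrombin and fibrin, which plasmin dissolves. Some factors have other sources: macrophages make C1q, fibroblasts make C1r, C1s and C1 inhibitor, and tissue factor, the C5a receptor and CD55 sit on cells and do not circulate as plasma factors.

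Of 48 listed genes of both cascades, 41 were measured by a probe set annotated with that symbol alone. The other 7 (F7, F11, F13b, Kng1, C2, Cfb and Cd59) had no such probe set and have no values here. Where a gene had several probe sets (7 members), the one with the highest mean over the 21 arrays was taken. All genes together numbered 14218.

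RNA came from male young adult Fischer 344 rats, all bearing the BDEneu cholangiocarcinoma, a bile duct cancer grown from rat cholangiocytes that carry activated neu, the rat Erbb2 oncogene. Tumour and right liver lobe came from the same rats, with rats 1 to 3 at day 10, rats 4 to 6 at day 15 and rats 7 to 9 at day 25. Rats 7 to 9 also gave a peritoneal metastasis, which made 7 groups of 3 arrays each. Every liver came from a tumour-bearing rat, so no group is a healthy liver. The description field of the day 25 livers reads day 55, whereas their titles and sources read day 25, which was used. Values are log2 signals after robust multi-array averaging (RMA), between 3.16 and 14.62 with a median of 6.02. No detection calls were used, so a value near 4 or 5 is not read as expression or absence.

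Tissue labels were checked against marker genes. Hepatocyte markers (15 measured) averaged 12.43 to 13.05 in the livers and 6.10 to 7.03 in the metastases. Cholangiocyte markers (7) averaged 10.26 to 10.95 in tumours and metastases and 5.61 to 7.18 in livers, and Erbb2 averaged 9.18 to 10.12 against 5.28 to 5.42. In the tumours the hepatocyte mean ranged from 7.96 to 11.81, so every tumour piece carried hepatocyte transcripts in differing amounts. In bulk tissue, fewer cells of a type and less RNA per cell cannot be told apart. The day 25 tumour of rat 7 stood apart: its mean correlation with its own group was 0.941, the lowest of the 21 arrays, and its hepatocyte mean was the lowest of the 9 tumours. Pancreatic acinar markers (9) reached 8.92 in 1 day 15 tumour, 8.86 in 1 day 25 tumour and 11.18 in 1 metastasis, against 5.22 to 6.81 in the remaining arrays. Where leaving out these 3 arrays (the acinar arrays) changed the call of a member described, the value without them is given.

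The members were parted by 1 measure, the metastasis mean minus the day 25 liver mean. Below -1 log2 a gene was placed on the liver side, above 1 on the tumour side, and between these limits among the shared factors. This gave 29 liver-side, 8 shared and 4 tumour-side members, a description with no test. Over all genes, 8.83% lay past the limit on the liver side and 15.6% on the tumour side. The members nearest the limits were C5ar1 at 1.04 (inside) and Procr at 0.85 (outside) above, and C1s at -1.78 (inside) and Thbd at -0.80 (outside) below.

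The liver side held a deep group and a shallow group. In 23 genes the metastasis lay 4.66 to 8.85 log2 below the liver, with liver means of 10.69 to 14.07 and metastasis means of 4.14 to 7.52 at day 25. Of these, 18 had a metastasis mean under 6.02, the median of all values over all probe sets. The median over the 14218 genes was higher, 7.08 to 7.24 in the metastasis arrays. Of the deep genes only Cfi, at 7.52, lay above it. In the other 6 (Masp1, C3, Pros1, C1r, Serping1 and C1s) the difference was 1.78 to 2.53 log2, and metastasis means were 6.86 to 11.77. Serpinc1, which encodes antithrombin, the main inhibitor of thrombin, had the largest difference, -8.85. Its level was 13.24, 13.47 and 13.56 in the day 25 livers of rats 7, 8 and 9 and 4.92, 4.32 and 4.49 in their metastases. Serpinc1 levels in the 2 tissues lay far apart in all 3 rats. C1s, a protease of the C1 complex, measured 12.92, 13.04 and 13.15 in the same livers and 10.03, 11.94 and 11.79 in the metastases. The rat 7 metastasis was the lowest of the 3 for C1s, as it was for all 6 genes of the shallow group and for all 8 shared factors, but for 6 of the 23 deep ones. That array also had the lowest fibroblast marker mean of the metastases, 10.68 against 12.15 and 11.93, and its part in these values was not tested.

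**Figure D1:**
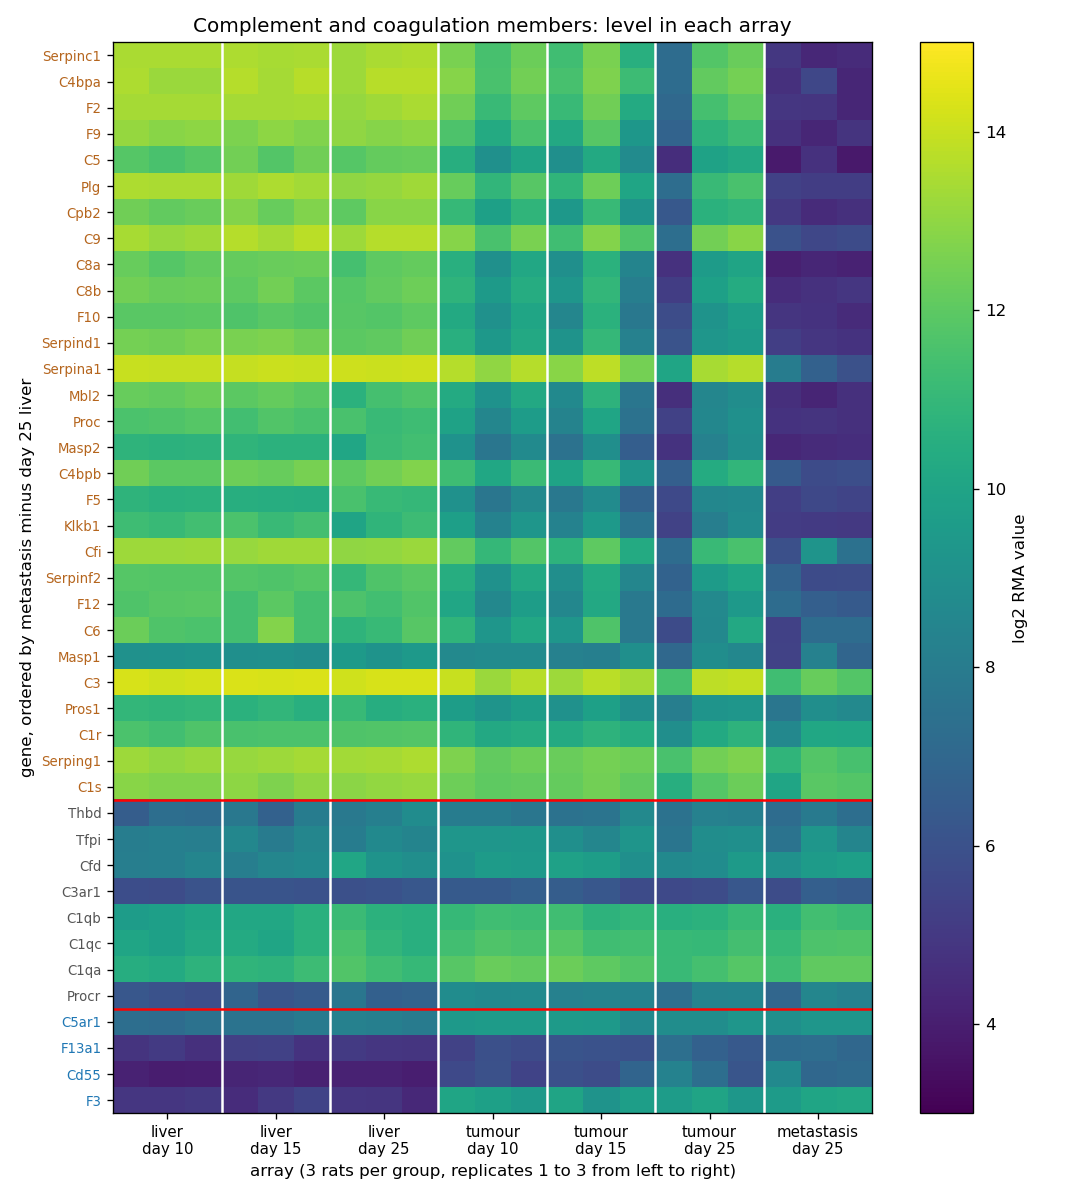
Heat map of the log2 RMA value of the 41 members (rows, ordered by metastasis minus day 25 liver) in each of the 21 arrays (columns, 3 rats per group); red lines divide the 29 liver-side, 8 shared and 4 tumour-side members. Most liver-side genes are bright in all 9 livers, intermediate in tumours and dark in the metastases and the first day 25 tumour (rat 7). C3, Serping1 and C1s stay at 10.03 or above in every array, and C1r falls to 8.60 in the rat 7 metastasis.

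Promoter sequences were looked up by class. The parting itself made the liver-side members lower in metastasis than in liver. RefSeq (GRCr8) promoters were found for 31 of the 41 members, 32 sequences in all as Tfpi had 2. Cpb2, C9, Serpind1, Masp2, Serping1, C1s, Thbd, C1qc, C5ar1 and F3 had none in the table. The 250 bases before each start were searched on both strands for 7 short motifs, chosen after the values were known, and the same search over 33465 promoters gives the background. The motif GTTAATNAT of hepatocyte nuclear factor 1 (HNF1), a liver transcription factor, matched 3 of 23 liver-side promoters, those of C4bpa, C5 and Plg, none of 7 shared and none of 2 tumour-side ones, against 0.666% of all promoters. The motif GGGNNTTCC of NF-kB, an inflammatory transcription factor, matched both tumour-side promoters, 2 of 23 liver-side and 1 of 7 shared ones, against 5.09% of all. For C/EBP, TTNNGNAAT, the counts were 5 liver-side and 0 others (10.9% of all), and for STAT factors, TTCNNNGAA, 4 liver-side, 1 shared and 0 tumour-side (7.67% of all). For AP-1, TGANTCA, they were 1 liver-side, 2 shared and 0 tumour-side (6.34%), for PU.1, GAGGAAGT, 1 liver-side and 0 others (2.04%), and for HNF4, CAAAGTCCA, 0 throughout (0.338%). The NF-kB and STAT motifs share the letters TTC, so their matches can overlap. These are letter matches and show neither binding nor its absence. The 150 bases upstream of the start are printed for the 3 HNF1 carriers and for the 2 tumour-side members in the table, with the HNF1 match (first 3) or the NF-kB match (last 2) in capitals. They lie on GRCr8 at chr13:44663472-44663621 (C4bpa), chr3:38759469-38759618 (C5), chr1:50915407-50915556 (Plg) and chr13:44438102-44438251 (Cd55), all on the minus strand, and at chr17:28021047-28021196 (F13a1) on the plus strand.
C4bpa: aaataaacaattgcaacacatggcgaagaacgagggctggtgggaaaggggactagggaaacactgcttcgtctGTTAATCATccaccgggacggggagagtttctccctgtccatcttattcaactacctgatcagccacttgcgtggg
C5: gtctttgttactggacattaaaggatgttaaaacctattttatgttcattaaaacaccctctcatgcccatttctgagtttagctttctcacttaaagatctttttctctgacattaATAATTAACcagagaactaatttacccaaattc
Plg: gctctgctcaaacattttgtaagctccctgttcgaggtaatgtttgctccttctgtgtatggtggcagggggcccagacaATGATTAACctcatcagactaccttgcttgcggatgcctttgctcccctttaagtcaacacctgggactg
Cd55: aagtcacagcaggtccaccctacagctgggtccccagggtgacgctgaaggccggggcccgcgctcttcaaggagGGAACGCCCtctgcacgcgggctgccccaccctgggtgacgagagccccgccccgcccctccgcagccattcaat
F13a1: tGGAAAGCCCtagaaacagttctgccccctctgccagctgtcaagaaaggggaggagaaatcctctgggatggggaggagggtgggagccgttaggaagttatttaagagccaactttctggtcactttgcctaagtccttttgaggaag

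Tumours of days 10 and 15 were compared with the livers of the same 6 rats, arrays that the parting did not use. In these tumours most liver-side members were lower, while tissue factor, the endothelial protein C receptor, the C5a receptor, Cd55 and C1q were higher. Of the 41 members 23 fell, all on the liver side, and 11 rose, 7 shared and all 4 tumour-side ones (limma, adjusted p under 0.05 over 14218 genes). Over all genes 34.8% fell and 34.4% rose, so a single call in this comparison is common. The median change was -2.04 log2 over the 29 liver-side members, 1.05 over the 8 shared and 1.83 over the 4 tumour-side ones, against -0.03 over all genes. The 23 genes that fell were lower in the tumour of all 6 rats, with standard errors of 0.18 to 0.70. So were Serpina1, C1s, C3, C9 and C4bpa, which were not called although their tumours and livers did not overlap. Masp1, also not called, was lower in 5 of 6 rats.

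**Figure D2:**
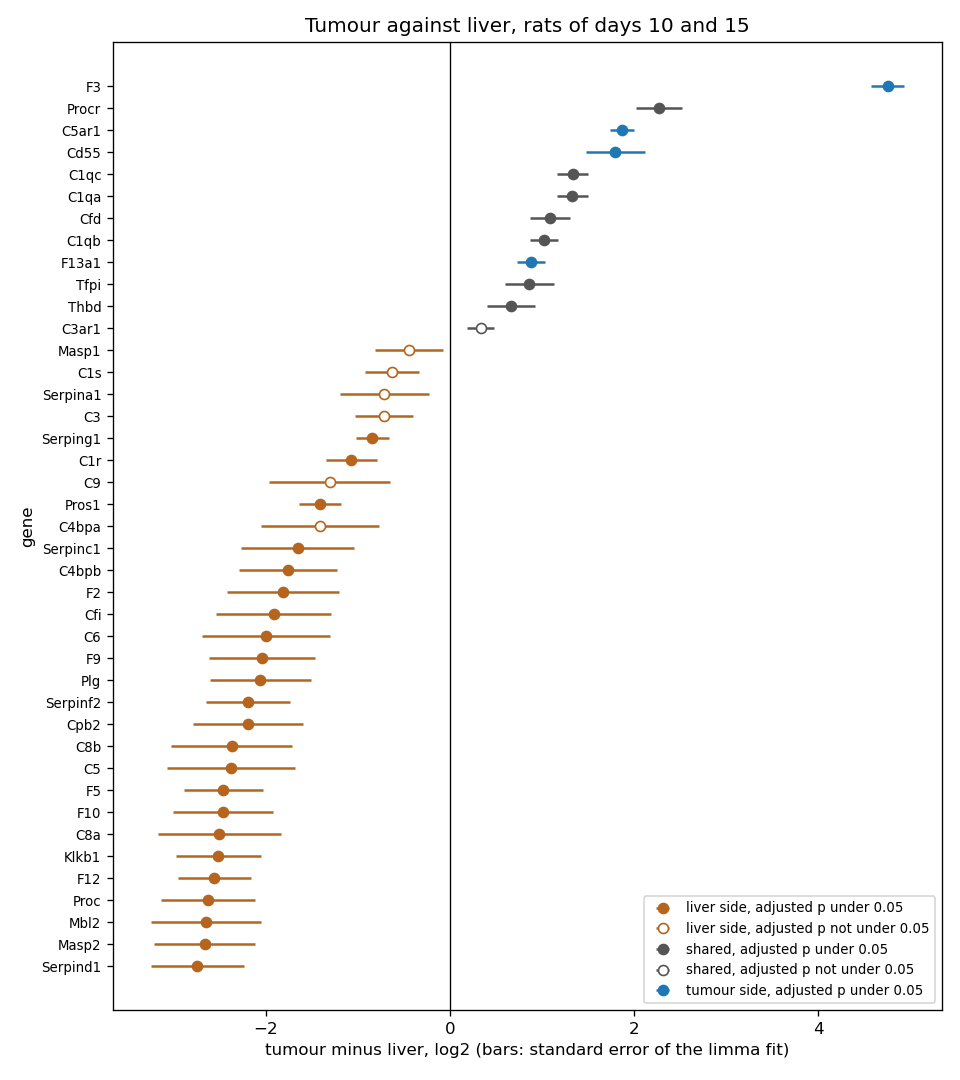
Tumour minus liver in log2 for each member over the 6 rats of days 10 and 15 (points, with the standard error of the limma fit as bars); filled points had an adjusted p under 0.05. The liver-side members run from -2.75 (Serpind1) to -0.44 (Masp1), and F3 stands at 4.76, well above Procr at 2.27.

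Among the coagulation proteases, F12, the start of the contact pathway, fell by 2.56 (SE 0.39, adjusted p = 2.45e-05). Its level was 10.10, 8.58 and 9.69 in the day 10 tumours and 8.56, 10.22 and 7.84 in the day 15 tumours, against 11.42 to 11.97 in the 6 livers. The F12 tumour values spread over more than 2 log2 while the livers were close together, and the tissues did not overlap. Klkb1 (plasma prekallikrein), with tumours from 7.58 through a median of 8.81 to 9.79 and livers from 11.11 to 11.59, fell by 2.52. F10, which cuts prothrombin, ranged from 7.80 to 10.66 in the tumours (median 9.57) and from 11.70 to 11.97 in the livers and fell by 2.47. F5, its cofactor, ranged from 6.81 to 9.06 (median 8.23) and from 10.44 to 10.83 and fell by 2.46. Each had its lowest tumour value in the third day 15 tumour. F9, the factor missing in haemophilia B, fell by 2.04 and F2, prothrombin, by 1.82. The adjusted p of F2 was 0.014, the highest of these 6. Thus all 6 liver-side coagulation proteases and cofactors that were measured fell.

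The largest fall of all 41 members was that of an anticoagulant plasma protein. Serpind1 (heparin cofactor II) was at 10.57, 9.38 and 10.25 in day 10 tumours, 9.19, 10.996 and 8.28 in day 15 tumours and 12.40 to 12.66 in the 6 livers. It fell by 2.75 (SE 0.51, adjusted p = 0.000155), and no tumour reached a liver. Proc (protein C) had tumours from 7.52 to 10.04 (median 9.08) and livers from 11.36 to 11.84 and fell by 2.63. Pros1 (its cofactor protein S) fell by 1.41 and Serpinc1 by 1.66. The Serpinc1 call (adjusted p = 0.0241) ended without the second day 10 tumour (adjusted p = 0.0569) or without the third day 15 tumour (0.063). The fibrinolysis genes Plg (plasminogen), Serpinf2 (antiplasmin) and Cpb2 (a carboxypeptidase that slows fibrinolysis) fell: Plg by a log2 difference of -2.06, Serpinf2 of -2.19 and Cpb2 of -2.20. Cpb2 ranged from 9.17 to 11.07 in the tumours (median 10.33) and from 12.12 to 12.77 in the livers, and Serpinf2 from 8.51 to 10.46 (median 9.66) and from 11.70 to 11.85, so neither overlapped.

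The membrane-bound anticoagulants went the other way. Procr, the endothelial protein C receptor, measured 8.84, 8.71 and 8.73 in day 10 tumours and 8.28, 8.36 and 8.30 in day 15 tumours. The livers of those rats were at 6.25, 6.01 and 5.86 and at 6.88, 6.18 and 6.40, below every tumour. Procr rose by 2.27 (SE 0.25, adjusted p = 6.32e-07), a 4.84-fold difference. Tfpi, the inhibitor of the tissue factor complex, rose by 0.86 (adjusted p = 0.00786). It was higher in all 6 rats, but its tissues overlapped and its dimmer probe set gave 0.24. Thbd (thrombomodulin) was higher by 0.66 (adjusted p = 0.0329), but it was higher in 5 of 6 rats only and its tissues overlapped. The Thbd call ended with the mean of its 3 probe sets (0.37, adjusted p = 0.0914), after median centring or quantile normalization, and without any of 5 single arrays (the first and second day 10 tumours, the third day 15 tumour, the first day 10 liver and the second day 15 liver; adjusted p 0.0612 to 0.102). Endothelial markers (7) averaged 7.92 to 8.23 in these tumours and 7.92 to 8.41 in these livers, with 2 of 7 higher and 2 lower.

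F3, tissue factor, had the largest rise of all members. It measured 10.04, 9.82 and 9.44 in day 10 tumours, 10.02, 9.18 and 9.73 in day 15 tumours and 4.54 to 5.40 in the 6 livers. The difference was 4.76 log2 (SE 0.18, adjusted p = 2.57e-12), in 6 of 6 rats. No fold is given, since the liver values lie near the bottom of the scale. F3 was nearly level over time: tumour means at days 10 and 25 differed by -0.11 (adjusted p = 0.857). In the metastases of rats 7, 8 and 9 it stood at 9.60, 10.07 and 10.21, with no called difference from their tumours (0.30, adjusted p = 0.85).

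F13a1, the subunit of the fibrin-stabilising factor XIII that macrophages and platelets make, was dimmer but followed the same order of tissues. It measured 5.36, 5.92 and 5.76 in day 10 tumours, 6.12, 6.01 and 5.92 in day 15 tumours and 4.67 to 5.30 in the livers, and it rose by 0.88 (SE 0.15, adjusted p = 8.96e-05). Day 25 tumours were at 7.40, 6.75 and 6.33 and metastases at 7.18, 7.30 and 6.99. The day 25 tumours lay above all day 10 tumours, a difference of 1.15 that missed the threshold (adjusted p = 0.0721). It passed in the mean of its 2 probe sets (1.51, adjusted p = 0.0407), and without the third day 25 tumour (1.39, adjusted p = 0.0197). Platelet markers (5) averaged 5.81 to 6.05 in tumours and 5.84 to 6.38 in livers, with 1 of 5 higher and 2 lower in the tumours of days 10 and 15.

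In the complement cascade, 2 of 3 measured lectin-pathway members and 4 of 5 terminal-pathway members fell. Masp2, the protease of mannose-binding lectin, ranged from 6.59 to 9.13 in the tumours (median 8.21) and from 10.69 to 10.87 in the livers and fell by 2.67. Mbl2, the lectin itself, ranged from 7.71 to 10.74 (median 9.67) and from 11.95 to 12.28 and fell by 2.65. The dimmest Masp2 probe set gave -0.16 where the others gave -2.67 and -2.93. Of the membrane attack components, C8a (8.41 to 10.68 in tumours, median 9.61; 11.83 to 12.30 in livers) fell by 2.51. C5 (8.78 to 10.51, median 9.51; 11.55 to 12.44) fell by 2.38, C8b by 2.37 and C6 by 2.00, whereas C9 differed by -1.31 and was not called (adjusted p = 0.0866), although it passed after median centring (0.0345) and without the acinar arrays (0.0443). The C6 call ended without the third day 15 tumour (adjusted p = 0.0558), and C6 overlapped between tissues because the second day 15 tumour reached 11.71. Cfi, which inactivates C3b, ranged from 10.34 to 12.10 in the tumours (median 11.39) and from 13.15 to 13.30 in the livers and fell by 1.91. C4bpb, the smaller chain of the C4b-binding protein, fell by 1.76. Its partner chain C4bpa differed by -1.41 (adjusted p = 0.0609) and passed with the rat as a block (adjusted p = 0.0442), after median centring (0.0221) without the second day 15 tumour (0.045) or without the acinar arrays (0.0274).

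The 6 shallow liver-side genes had a median of -0.78, against -2.20 over the 23 deep ones, and 3 of the 6 fell. C1r, a C1 protease, fell by 1.07 (SE 0.28, adjusted p = 0.00267), and Serping1, the C1 inhibitor, by 0.84 (SE 0.18, adjusted p = 0.000462). Serping1 ranged from 12.10 to 12.67 in the tumours (median 12.35) and from 13.06 to 13.36 in the livers, without overlap. C3, on which all complement pathways meet, measured 14.01, 13.18 and 13.72 in day 10 tumours and 14.15 to 14.25 in their livers, near the top of the scale in both. The C3 difference over days 10 and 15 was -0.72 (adjusted p = 0.0508), and it passed with the rat as a block (0.0323), after median centring (-0.98, adjusted p = 0.00643), without dim genes, without the acinar arrays (0.0319), and without either the first day 10 tumour or the second day 15 tumour. C1s differed by -0.63 (adjusted p = 0.0654) and passed with the rat as a block (0.0378), after median centring (-0.90, adjusted p = 0.00664) and without the acinar arrays (0.0355). Fibroblasts make C1r, C1s and C1 inhibitor, and their markers (9 of 9 higher) averaged 11.73 to 12.24 in these tumours against 6.94 to 8.24 in the livers; their part in these values was not tested. Serpina1, antitrypsin, differed by -0.72 (adjusted p = 0.197), with tumours of 12.48 to 13.82 (median 13.34) and livers of 13.93 to 14.02, also near the top. Masp1 differed by -0.44 (adjusted p = 0.293) on its brightest probe set, whereas the other probe sets gave -2.18 and -0.50, and the mean of all 3 passed (-1.04, adjusted p = 0.000168).

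C1q, the recognition molecule of the classical pathway, is made of the chains C1qa, C1qb and C1qc, which macrophages express. C1qa measured 11.89, 12.26 and 12.11 in day 10 tumours, 12.32, 12.04 and 11.76 in day 15 tumours, and 10.50, 10.34 and 10.74, then 10.87, 10.77 and 11.22, in the livers of those rats. Every tumour was above every liver. C1qc likewise ranged from 11.34 to 11.82 in the tumours (median 11.46) and from 9.83 to 10.65 in the livers. C1qa and C1qc rose by 1.33 each (SE 0.17 for both; adjusted p = 3.33e-06 and 3.35e-06) and C1qb by 1.02. C5ar1, the C5a receptor of myeloid cells, was at 8.70 to 9.59 in the tumours (median 9.53) and 7.25 to 7.93 in the livers. It rose by 1.87 (SE 0.13, adjusted p = 4.02e-09), or 3.65-fold. Cfd, factor D, which cuts factor B and is made by fat cells and macrophages, rose by 1.09 (adjusted p = 0.00032), from livers of 8.13 to 8.70 to tumours of 8.96 to 9.88 (median 9.50). C3ar1, the C3a receptor, differed by 0.33 (adjusted p = 0.0577) and passed with the rat as a block (0.0349). Macrophage markers (10) moved with these genes: 9 of 10 were higher and 1 lower in the tumours of days 10 and 15, and their mean was 9.44 to 10.03 there against 8.62 to 9.06 in the livers. Both measured Kupffer cell markers were lower in tumours, 6.60 to 8.84 against 10.29 to 10.99. Neutrophils also carry the C5a receptor, and their markers (7) averaged 7.97 to 8.76 in tumours against 5.22 to 6.63, with 6 of 7 higher. The part of these cells in the C1q, C5ar1 and Cfd values was not tested.

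Cd55, decay-accelerating factor, which protects cells from C3 convertases, measured 5.65, 5.96 and 5.42 in day 10 tumours, 5.91, 5.79 and 6.87 in day 15 tumours and 3.97 to 4.34 in the 6 livers. It rose by 1.80 (SE 0.32, adjusted p = 0.000104). Day 25 tumours reached 8.30, 7.32 and 6.19 and metastases 8.71, 7.02 and 7.16, with rat 7 highest in both tissues. The day 25 tumours differed from day 10 tumours by 1.59, which was not called (adjusted p = 0.155), although the groups did not overlap. Without the third day 25 tumour, one of the arrays with acinar signal, the difference was 2.13 (adjusted p = 0.0354).

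**Figure D3:**
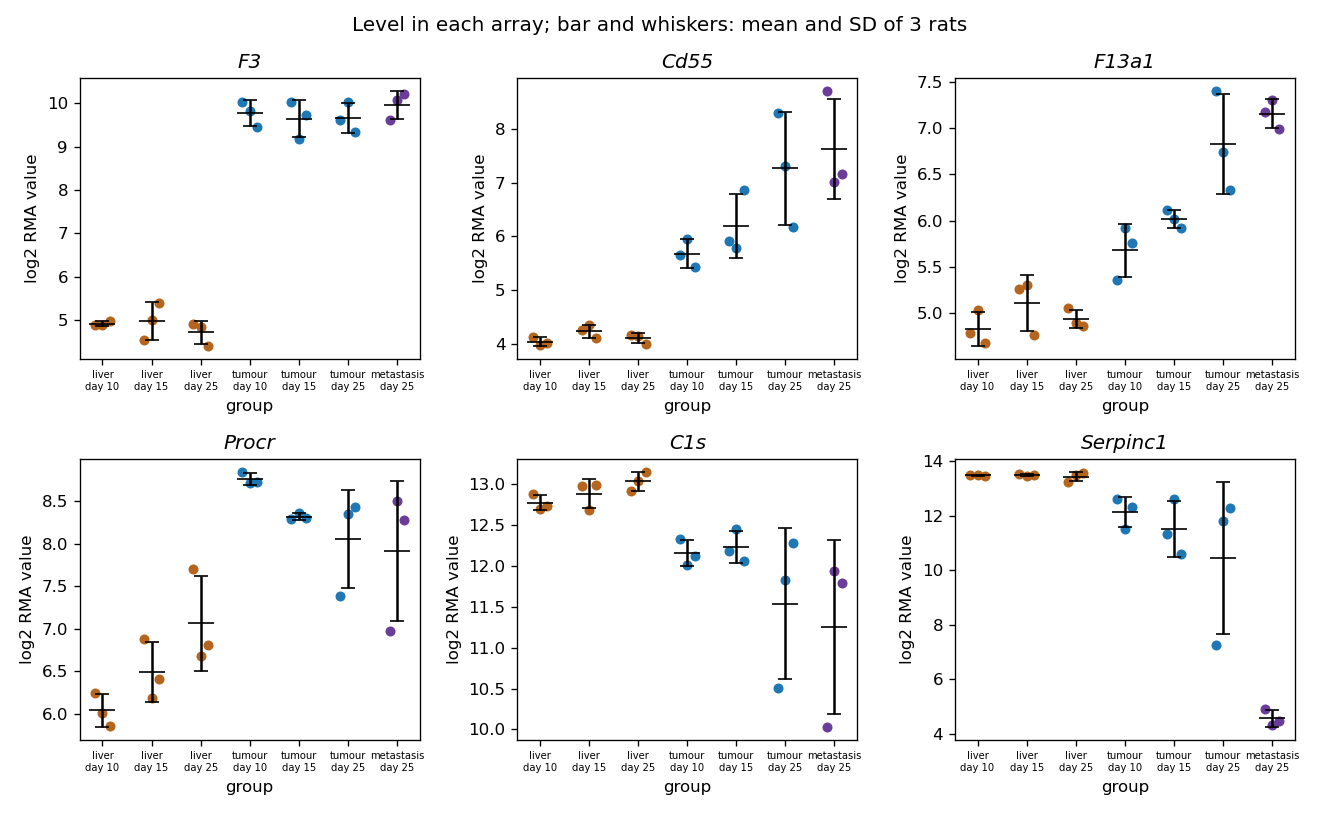
Log2 RMA value of F3, Cd55, F13a1, Procr, C1s and Serpinc1 in every array (points) by group, with the mean and SD of 3 rats; vertical scales differ. F3 separates livers (4.41 to 5.40) from all other arrays (9.18 to 10.21), Cd55 and F13a1 are highest at day 25, and Serpinc1 falls below 5 in the metastases.

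Other genes of these pathways were taken from lists drawn up alongside the members. Of 18 measured complement genes 8 rose and 7 fell in the tumours of days 10 and 15 (median -0.09). Colec12, a scavenger receptor collectin, rose by 3.73, Fcnb, a myeloid ficolin, by 3.14, and Itgax, a chain of complement receptor 4, by 2.45. C8g, the remaining chain of C8, fell by 2.76, Colec11, a liver collectin, by 2.47. Cpn1, a chain of the enzyme that inactivates C5a, fell by 2.43. Of 30 measured coagulation and fibrinolysis genes 11 rose and 11 fell (median -0.11). Over all genes 34.4% rose and 34.8% fell in this comparison, and the coagulation counts lay near these shares. Tfpi2, a protease inhibitor related to Tfpi, rose by 5.15, Anxa2, a cell-surface docking protein of plasminogen, by 4.42 and F2r, the thrombin receptor, by 4.25. Hrg, a plasma glycoprotein, fell by 1.96, Serpina10, the protein Z-dependent inhibitor, by 1.83 and Itga2b, a chain of the platelet fibrinogen receptor, by 1.33.

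The day 25 tumours share their livers with the parting, so counts by class are a description there. Of the 41 members 27 were lower, all on the liver side, and 5 higher (Procr and the 4 tumour-side genes), against 22.4% lower and 27.7% higher of all genes. The liver-side median was -3.12. Over all 41 members the median was -2.73 with the tumour of rat 7 and -1.39 without it. For Serpinc1 the 3 tumours were at 7.25, 11.80 and 12.27, against 13.24, 13.47 and 13.56 in the livers, so rats 8 and 9 lay near the level of the earlier tumours. The rat 7 tumour was the lowest of the 3 for all 29 liver-side members. C9, C6 and C3 were no longer called without that tumour (adjusted p = 0.0674, 0.108 and 0.196). The C9 call also ended without the liver of rat 8 or 9, that of C6 without the liver of rat 9, and that of C3 without any single liver or after quantile normalization (0.0536). The call of Procr (0.99, adjusted p = 0.028) ended without the tumour or the liver of rat 8 or 9 (adjusted p 0.0966 to 0.111) and without the acinar arrays (0.0974). Serpina1 and Masp1 were not called (adjusted p = 0.0511 and 0.0616), and both passed without the acinar arrays (0.0146 and 0.0177) and with the rat as a block (0.0445 and 0.0396). Both also passed after median centring (0.0286 and 0.0254). Masp1 passed as well in the mean of its 3 probe sets (-1.43, adjusted p = 0.000423) and after quantile normalization (0.0363). F3 was higher by 4.94, Cd55 by 3.17, F13a1 by 1.89 and C5ar1 by 0.87, each above every day 25 liver.

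In the 12 tumour and metastasis pieces, the median of the liver-side members and that of the hepatocyte markers lay close together. The median of the 29 members minus the same rat's liver was -1.34, -2.38 and -1.41 in day 10 tumours, where the median of 15 hepatocyte markers was -1.56, -2.50 and -1.58. At day 15 the members were at -2.40, -1.15 and -3.32 and the markers at -2.43, -1.26 and -3.00. At day 25 the tumours of rats 7, 8 and 9 were at -5.72, -2.07 and -1.74 against -5.12, -1.86 and -2.03. The metastases were at -6.34, -6.72 and -6.84 against -6.69, -6.43 and -6.47. The largest gap between the median of the members and that of the markers in a piece was 0.60 log2. Single members spread more widely: in the rat 7 day 25 tumour Serping1 was at -1.79 and C5 at -7.30. The day 25 livers and the metastases set which members are on the liver side, so the day 25 values are a description. In the 6 tumours of days 10 and 15, which the parting did not use, the median of the members ranged from -3.32 to -1.15.

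**Figure D4:**
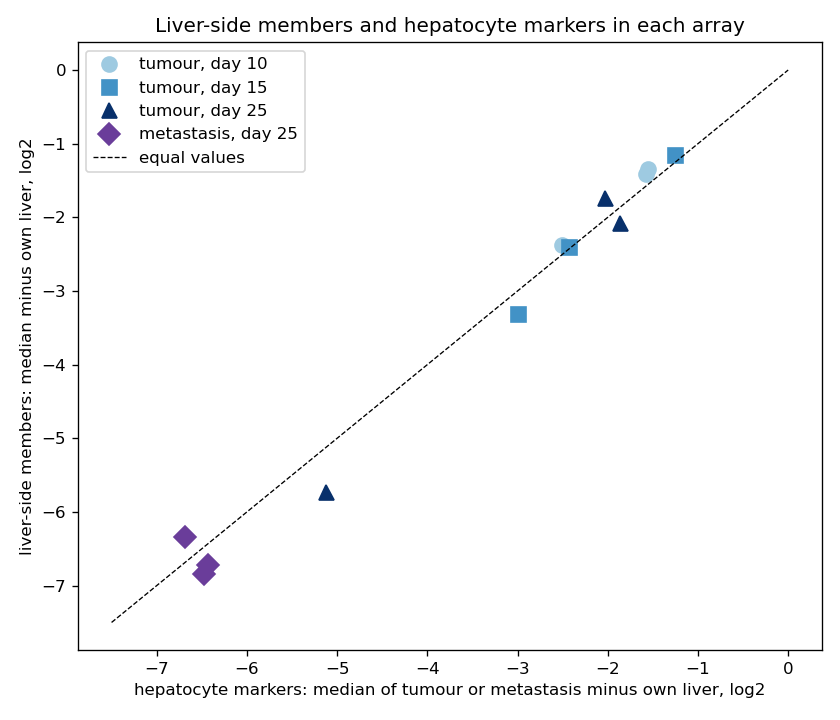
Median of the 29 liver-side members (vertical) against the median of 15 hepatocyte markers (horizontal), each as log2 of a tumour or metastasis minus the same rat's liver; points are the 12 pieces and the dashed line marks equal values. The pieces follow the line from about -1.15 to -6.84, with rat 7's day 25 tumour at -5.72 beside the metastases.

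Metastases were compared with the tumours of the same 3 rats, using arrays on which the parting drew. No member was higher and 8 were lower, all in the deep liver-side group, against 0.00703% and 0.331% of all genes. They were Serpinc1 (-5.86, SE 0.87, adjusted p = 0.00271), C4bpa (-5.77), F2 (-5.51), Serpina1 (-5.47, SE 0.69, adjusted p = 0.000696), C9 (-5.12), F9 (-5.00), Plg (-4.75) and Cpb2 (-4.58). Serpina1 was at 10.07, 13.42 and 13.67 in the tumours of rats 7, 8 and 9 and at 8.05, 6.71 and 5.98 in their metastases. C4bpa was at 7.22, 12.12 and 12.47 and at 4.66, 5.56 and 4.29, and F2 at 7.07, 11.47 and 12.02 and at 4.89, 4.86 and 4.27. In each the rat 7 tumour lay between the other tumours and the metastases. At an unadjusted p under 0.05, 25 members were lower and 0 higher. The share of all genes at that threshold was not counted, so these numbers are a description. The count of 8 called members rests on single arrays. Without the tumour of rat 7 it was 24, without that of rat 8 it was 2 and without that of rat 9 it was 4. Without the metastasis of rat 9 it was 5. Without the acinar arrays only Serpina1 passed, and the other 7 had adjusted p of 0.075 to 0.353. With the rat as a block F10 (adjusted p = 0.0393) and Serpind1 (0.0336) were called as well. The 6 shallow genes differed by -1.30 to -0.29, the shared factors by -0.51 to 0.46 and the tumour-side genes by 0.17 to 0.36, none of them called with all arrays. Without the tumour of rat 7, C3 (-2.08, adjusted p = 4.06e-05) and Serping1 (-1.17, adjusted p = 0.00493) of the shallow genes were called. Cfi and Masp1 were uneven among metastases, with Cfi at 5.92, 9.19 and 7.46 and Masp1 at 5.37, 8.28 and 6.93 in rats 7, 8 and 9. The highest value of both was in the metastasis with the acinar markers, and the part of those markers was not tested.

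Tumours of day 25 were next compared with those of day 10. No member passed in either direction with limma, against 0.0141% of all genes higher and 0.0422% lower. At an unadjusted p under 0.05, 2 members were higher (Cd55 and F13a1) and 9 lower, but the share of all genes at that threshold was not counted. Mbl2 differed by -2.55 (adjusted p = 0.189). Without the acinar arrays 8 members were lower (F10, Serpind1, Mbl2, Proc, Klkb1, F12, C6 and C3ar1; adjusted p 0.0265 to 0.0494) and 2 higher, and these 2 were also called without the third day 25 tumour alone. None of the 8 was called without the third day 25 tumour alone. The fit without the acinar arrays left the day 25 tumours of rats 7 and 8. Of the day 25 tumours, that of rat 7 was the lowest for every liver-side member. The share of all genes called without the acinar arrays was not counted. The median over the 41 members was -1.07 with the rat 7 tumour and -0.16 without it.

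The liver lobe itself changed in 5 of the 8 shared factors and in 1 of the 4 tumour-side genes, C5ar1. The day 25 livers also set the classes, so counts by class are a description here too. Between day 10 and day 25 the C1q chains, C5ar1, Cfd and Thbd rose in the liver, and no member fell, against 5.33% of all genes higher and 3.77% lower. C1qb measured 9.64, 9.77 and 10.06 in day 10 livers, 10.21, 10.21 and 10.63 in day 15 livers and 11.20, 10.73 and 10.57 in day 25 livers. The day 25 livers lay above all day 10 livers for C1qb, a difference of 1.01 (SE 0.21, adjusted p = 0.00867). C1qc rose by 0.97 (adjusted p = 0.0194), C1qa by 0.83 (0.0389) and C5ar1 by 0.78 (0.0163). Cfd was at 8.16, 8.20 and 8.46 in day 10 livers and 10.11, 9.18 and 8.94 in day 25 livers, and rose by 1.14 (adjusted p = 0.0283). Thbd was at 6.53, 7.31 and 7.22 and then at 7.86, 8.20 and 8.83, and rose by 1.27 (adjusted p = 0.041). Procr was at 6.25, 6.01 and 5.86 and then at 7.70, 6.68 and 6.81, a difference of 1.03 that missed the threshold (adjusted p = 0.0804).

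Over the 23 deep liver-side genes the day 25 minus day 10 median in liver was -0.08, with a range of -0.93 (Mbl2) to 0.51 (F5), and over the 6 shallow ones it was 0.22, with no call among the 29. The calls in liver rest on few arrays. C1qb alone of the 6 was called in every fit that left out 1 array. Without the first, the second or the third day 10 liver the count was 2, 1 and 3, and without the day 25 liver of rat 7, where C1qa, C1qb, C1qc, C5ar1 and Cfd were highest, it was 2. The Thbd call also ended after quantile normalization (adjusted p = 0.052). Macrophage markers averaged 8.62 to 8.85 in day 10 livers and 8.92 to 9.46 in day 25 livers, with 3 of 10 higher. Neutrophil markers averaged 5.22 to 6.09 and then 7.53 to 8.14, with 5 of 7 higher, fibroblast markers (9) 6.94 to 7.99 and then 7.67 to 8.74, with 2 of 9 higher, and cholangiocyte markers (7) 5.61 to 5.75 and then 5.71 to 7.18, with 1 of 7 higher. The highest cholangiocyte mean, 7.18, was in the liver of rat 7, against 6.03 and 5.71 in rats 8 and 9. Mesothelial markers (3) were also highest in that liver, at 6.79 against 5.80 and 5.57. The Kupffer markers averaged 10.29 to 10.52 and then 10.82 to 10.92, with neither called. The part of these cells in the liver values was not tested. Mast cell (5) and mesothelial (3) markers had no call between these livers.

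The tumour-liver difference of C1qa, C1qb and C5ar1 was smaller at day 25 than at day 10. The change of the difference was -1.45 (SE 0.34, adjusted p = 0.0449) for C1qa, -1.43 (SE 0.30, adjusted p = 0.0318) for C1qb and -1.32 (SE 0.26, adjusted p = 0.0258) for C5ar1, and no member changed upward with all arrays (2, Cd55 and F13a1, at an unadjusted p under 0.05). Over all genes 1.09% changed downward and 0.373% upward at the adjusted threshold, and the share at the unadjusted one was not counted. At day 25 C1qa measured 11.12, 11.45 and 11.84 in tumours and 11.74, 11.30 and 11.02 in livers, where the 2 tissues overlapped. For C1qa and C5ar1 the day 25 tumours lay below all day 10 tumours, a fall called for neither, whereas the C1qb tumours overlapped. C1qc changed by -1.34 (adjusted p = 0.0609), and was called without the acinar arrays (0.0491) and with the rat as a block (0.0397). Without the acinar arrays Cd55 (2.07, adjusted p = 0.0479) and F13a1 (1.29, adjusted p = 0.0362) changed upward. Cfd changed by -1.50 (adjusted p = 0.095) and Procr by -1.73 (adjusted p = 0.0946). The calls of C1qa and C1qb each ended without any 1 of the arrays compared other than the tumour and the liver of rat 9. That of C5ar1 ended without any 1 of them other than these, the third day 10 liver and the liver of rat 7. The C1qa call also ended after quantile normalization (0.0528) or median centring (0.0511).

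**Figure D5:**
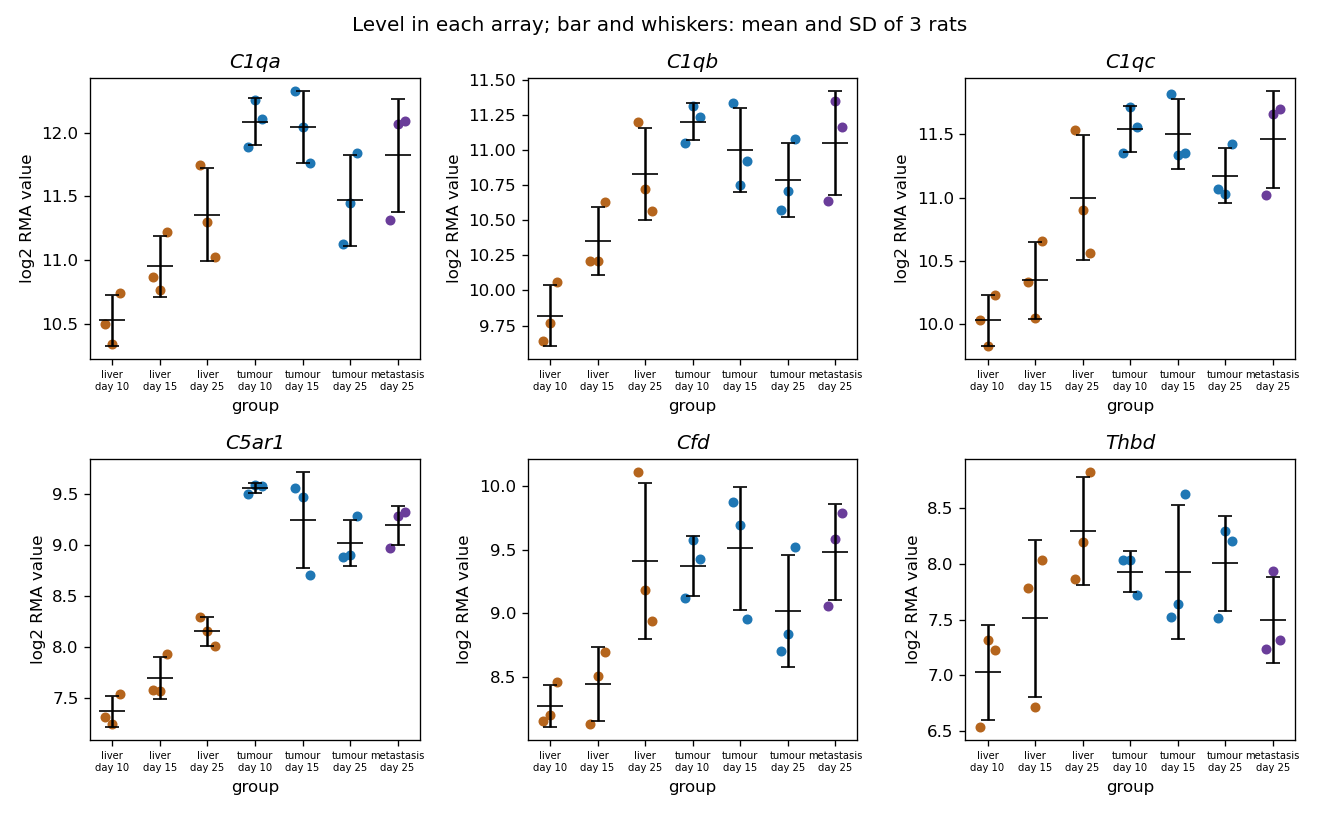
Log2 RMA value of C1qa, C1qb, C1qc, C5ar1, Cfd and Thbd in every array (points) by group, with the mean and SD of 3 rats; vertical scales differ. The C1q chains and C5ar1 climb from day 10 to day 25 in liver (C1qb from 9.64 to 10.06 up to 10.57 to 11.20). Their day 25 tumour means lie under the earlier tumour means, and none was called against day 10. For C1qa and C5ar1 the day 25 tumours lie below all day 10 tumours and overlap those of day 15. C1qb and C1qc overlap the tumours of both earlier days.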

How the data were processed

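Biotin-labelled RNA from 21 tissue pieces of 9 rats was hybridised to Affymetrix rat arrays, per the labels' protocols. The authors deposited log2 signals made with RMA, per the submitters' processing notes; the sources used here give neither the program nor its version or the scan order. RMA subtracts background and normalises all arrays together, so a broad shift of expression between tissues is partly removed, and fold changes are compressed at the bottom and top of the scale. Array medians were 5.98 to 6.06. Precision is limited by the 3 arrays of each group.

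Of 31099 probe sets, 20832 had 1 gene symbol in the platform annotation, 436 had several and 9831 were not listed. Symbols of 20764 of the single-symbol ones were updated through their gene ID in RefSeq (GRCr8). Keeping for each symbol its brightest probe set, by the mean of the 21 arrays, gave 14218 genes. limma 3.58.1 (R 4.3.3) fitted the 7 group means to all arrays with empirical Bayes moderation. A call is an adjusted p (Benjamini-Hochberg over all genes) under 0.05, and all groups share 1 estimate of the spread, so the day 25 arrays also set the errors of the earlier days. The comparison over days 10 and 15 is the mean of both days' tumour-liver differences. The fit was also run on simulated data with independent noise in each array, without rat pairing or an outlying array. That run cannot show how these affect the calls.

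The same rat gave each tumour-liver pair. The correlation of same-rat deviations from the group means was 0.04 to 0.297 between tumour and liver, 0.046 to 0.158 between metastasis and liver and 0.041 to 0.578 between metastasis and tumour. The fit with the rat as a random block is an alternative. p-values rest on 1 spread per gene, pooled from the arrays within all 7 groups of 3. Alternatives were another probe set rule, normalization, filter, variance prior, the block, each array left out and the 3 arrays with acinar signal left out. Members, gene lists and the arrays to leave out were chosen with earlier results of these data known. Any member may be named, with values for up to 2 members of each role by size of change over days 10 and 15, for the tumour-side members and for up to 4 called members per direction elsewhere; of the other pathway genes, up to 3 called per direction and list are named. The values of other members shown were chosen after they were seen.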

Additional observations from a re-analysis of the deposited data

Results flagged for a closer look

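For 3 members the tumour-liver difference itself differed between day 10 and day 25 in a test of that change (limma, adjusted p under 0.05). The change was -1.45 for C1qa, -1.43 for C1qb and -1.32 for C5ar1 on the log2 scale. C1qa was higher in tumour than in liver in all 3 rats of day 10 and in 2 of 3 rats of day 25. Day 25 was represented by 3 rats, and the calls ended in fits without single arrays, with adjusted p of up to 0.131 for C1qa, 0.0993 for C1qb and 0.0773 for C5ar1.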

How the results depend on the processing

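Over 39 results of single members, 579 settings kept direction and side of the threshold, 74 lost the call, 4 gained it and 0 reversed. Members called lower in metastasis against tumour went from 8 to 1 without the 3 arrays with acinar signal and to 2 to 24 when single arrays were left out. Between tumours of day 25 and day 10, where none was called, 1 was higher with the mean of probe sets, 2 were higher and 8 lower without the acinar arrays, and 0 to 2 were higher in the single-array fits. Without the acinar arrays 2 members had a tumour-liver difference that changed upward. The shares of all genes called in these other fits were not counted. Single-array fits gave 1 to 5 members higher in liver from day 10 to day 25 (6 with all arrays), 0 to 5 with a tumour-liver difference that changed downward (3) and 0 to 1 with one that changed upward (0). The block of the rat (within-rat correlation 0.136) gave 12 members higher and 26 lower over days 10 and 15, against 11 and 23, and it ended no call. Median centring moved the median of all genes by up to 0.265 and quantile normalization by 0.132, and members were not reversed by either. The cause of these changes was not tested. With a parting limit of 2 log2, 28 members were on the liver side and 10 were shared. The residual SD of the members, 0.86 in the median, and 3 arrays a group limit what can be called.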
